A study of Rattus norvegicus with 16 samples.

Results

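Genes that take up, activate and oxidise fatty acids were followed in rat muscle, from the capture of fatty acids at the fibre surface to the enzymes and receptors that set the rate. Of 42 genes listed for this pathway, 38 were the single named gene of at least 1 probe set, among 4736 genes named that way on the array. Crat, Acaa1a, Etfb and Mlycd were not analysed here. The 38 genes had 65 of the 8799 probe sets, and each gene was represented by its brightest probe set, the one with the highest mean over the arrays. The genes were read in 5 steps. Uptake had 4 genes, activation 7, the carnitine shuttle 4 of 5 listed, beta-oxidation 15 of 17 and control 8 of 9.

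Muscle fibres draw long-chain fatty acids from circulating triglyceride and pass them, as acyl-CoA and then as acyl-carnitine, into the mitochondrion. There beta-oxidation shortens the chain in repeated rounds and hands electrons to the respiratory chain. Malonyl-CoA holds back the entry step, and pyruvate dehydrogenase kinases turn the fibre from glucose towards fat. Extraocular muscles move the eye and are known for small fibres rich in mitochondria and for resistance to fatigue.

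The study profiled extraocular muscles of the rat on single-colour oligonucleotide arrays. One group, EOM, held 4 arrays of extraocular muscle, numbered 1 to 4, with no collection time given. The other groups held rat skeletal muscle that the labels call TA, collected at 6 hours in TA_6h (8 arrays, 4 numbered samples) and at 1 hour in TA_1h (4 arrays, 2 numbered samples). From which event the hours count is not said, and strain, age, sex and treatment are not given in the labels for any group. Arrays of 1 number were averaged as 1 sample, and 2 TA_6h arrays without a letter were joined to arrays 1b and 2b by inference. Whether the numbers stand for separate animals is not said, and p-values therefore cover only the spread among these samples, which may be technical. In whole muscle, fewer cells of a type and less RNA per cell cannot be told apart.

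Values are intensities, the brightness of a probe set on a linear scale, as the authors deposited them. Of the EOM intensities 24.3% lay below 0 and of the TA intensities none, and wherever EOM is set against TA, the muscle and the way its arrays were summarised cannot be told apart. Intensities under a floor of 56.5, the 25th percentile of all intensities, were raised to it before log2 was taken, and 37 of the 38 genes could be tested. Acot1, an acyl-CoA thioesterase, was above the floor on 1 array, EOM 2, at 193. Of the 37 genes, 30 were above the floor on all 16 arrays. A difference was called at an adjusted p under 0.05 in limma, adjusted over all 7640 probe sets tested. On 5 TA arrays, namely 2b of TA_1h and 3a, 3b, 4a and 4b of TA_6h, the middle to 3' ratio of the beta-actin control was 0.146 to 0.390. The ratio was 0.815 to 1.28 on the 7 remaining TA arrays and 0.891 to 0.978 on the EOM arrays. TA_6h samples 3 and 4 consist of such arrays, and members whose call changed without the 5 arrays are given with the values they then had. The skeletal muscle markers Acta1, Ckm, Des and Casq1 were present in every group. Of 9 skeletal muscle markers tested, 5 were called lower and 1 higher in EOM than in TA_6h. Among named genes 25.8% were lower and 22.3% higher. The extraocular myosin Myh13 was higher in EOM than in TA_6h by 5.18 on the log2 scale (limma adjusted p = 1.89e-06). The summed intensity of Myh13, Myh8 and Myh3 was 28777 to 35823 in EOM. It was 17463 and 17687 on TA_6h arrays 3a and 3b and 6698 and 7099 on 4a and 4b. On the other TA arrays it was 2904 to 5123.

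Against TA_6h, 16 of the 37 genes were called in EOM, 5 higher and 11 lower. The background was of the same size, since 48.0% of 4317 named genes were called, 22.3% higher and 25.8% lower. The higher genes were Cd36, Dbi, Acsl3, Acsl4 and Hadhb. The lower genes were Acsl1, Acsl6, Cpt1b, Acads, Hadha, Eci1, Ucp2, Ucp3, Pdk2, Ppard and Acaca. The median log2 difference was -0.10 over the 37 genes and -0.10 over the 4317. Among the 30 genes above the floor on all arrays, 4 were called higher and 9 lower. Over the whole array 4041 probe sets passed this filter. In the fit restricted to them, 1136 were called higher and 791 lower, with a median log2 difference of 0.12. The members, counted as genes and not as probe sets, had 4 higher and 9 lower in that fit too. Against TA_1h the same filter gave 5 members higher and 3 lower, with 923 probe sets higher and 589 lower. Of the 8 control genes, 5 were called lower and none higher, with a median of -1.14, whereas the beta-oxidation enzymes had 1 higher, 3 lower and 11 not called, with a median of 0.02.

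Against TA_1h, 10 of the 37 genes were called, 5 higher (Dbi, Cpt1a, Slc25a20, Hadhb, Etfdh) and 5 lower (Acsl6, Cpt1b, Pdk2, Ppard, Acaca). Here 37.6% of named genes were called, 18.1% higher and 19.5% lower. With quantile normalization 9 members were called, 3 higher and 6 lower. The median was 0.01 over the 37 members and -0.09 over the named genes. Without EOM sample 4 the count was 6. Without the 5 TA arrays of low ratio, calls rose over the 7640 probe sets, from 1354 higher and 1489 lower to 1640 and 1944. Of the members 23 were then called, with 13 added and none of the 10 lost. Those added were Cd36, Acsl1 (-0.56 on the log2 scale), Acads (-0.97), Acadl (-0.47), Hadh (-0.84), Hadha (-0.62), Ech1 (0.44), Eci1 (-0.91), Echs1 (0.55), Ucp2 (-0.53), Ucp3 (-1.78), Pdk4 (-1.52) and Acacb (-2.48). Both comparisons use the same 4 EOM arrays. Read array by array, Cd36 and Hadhb were higher on every EOM array than on any TA array, and Acsl6, Cpt1b, Pdk2 and Ppard were lower. Among named genes 14.6% were higher in this way and 14.5% lower.

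**Figure D1:**
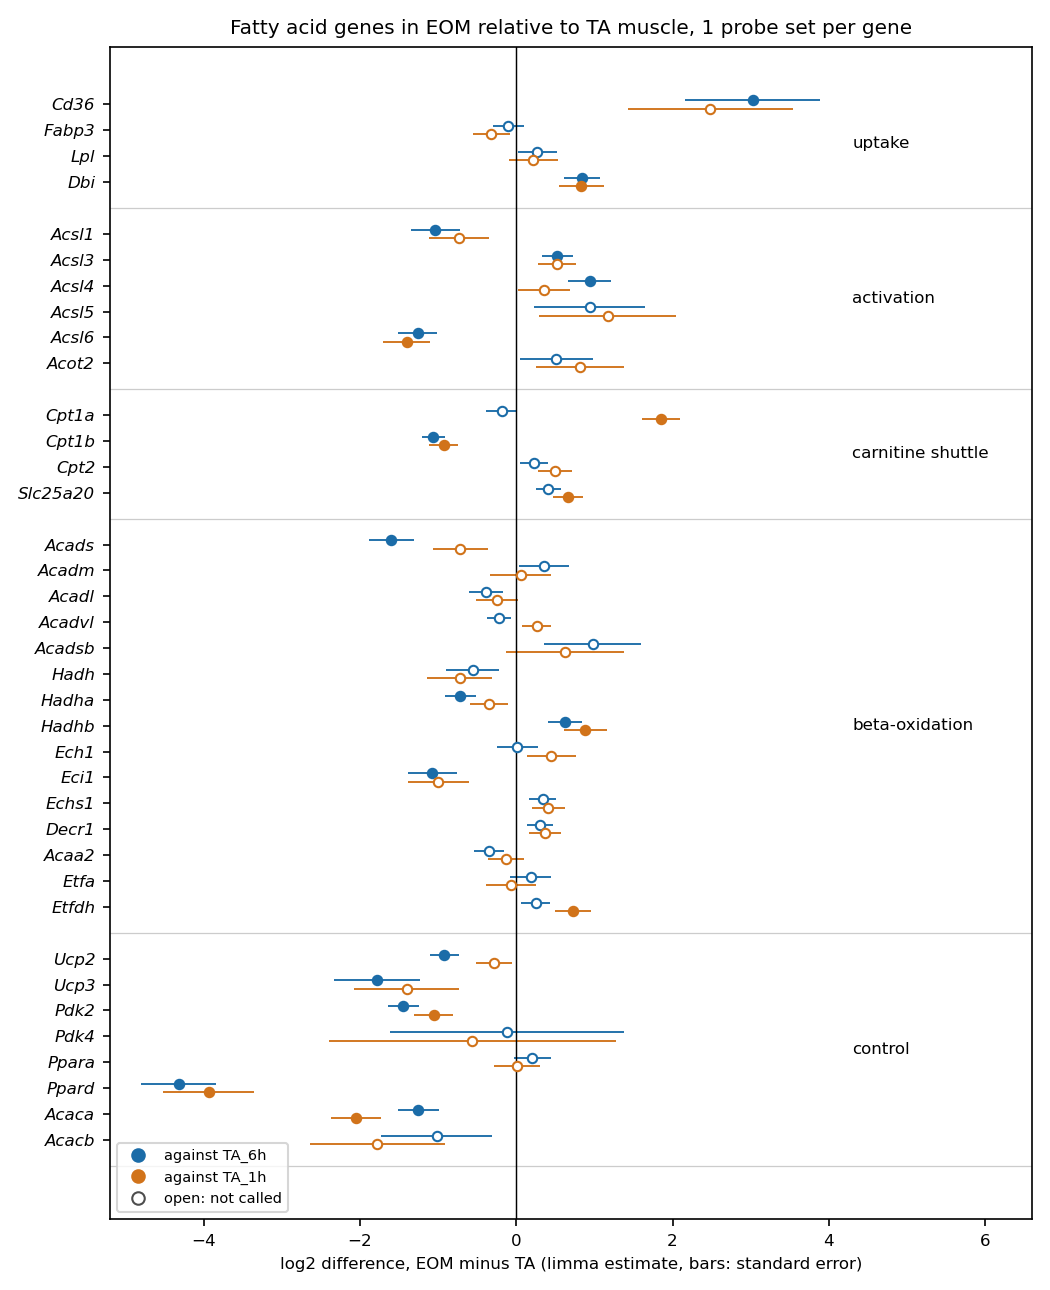
The log2 difference of EOM from TA_6h (blue) and from TA_1h (orange) is plotted for the 37 genes by step, with limma standard errors as bars and filled points for called differences. Ppard lies farthest to the left, at -4.32 against TA_6h, Cd36 farthest to the right, at 3.02, and most beta-oxidation enzymes lie near 0.

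At the uptake step, Cd36 and Dbi were higher in EOM. Cd36, the membrane protein that helps fatty acids into the fibre, had intensities of 1917, 1821, 1787 and 1950.4 in EOM, 795, 761, 60.6 and 77.6 in TA_6h and 762 and 182 in TA_1h, each list in the order of sample number. The 4 EOM samples lay close together and above every TA sample, while TA_6h samples 3 and 4 and TA_1h sample 2 were far below the other TA samples. The log2 difference was 3.02 ± 0.86 (SE) against TA_6h, or 8.14-fold (limma adjusted p = 0.0162). Against TA_1h it was 2.48 ± 1.06 and was not called (limma adjusted p = 0.0929), but it was called without the 5 low-ratio arrays (2.01, adjusted p = 0.00292), with those alone as TA (4.60, 0.000105) and with them as a batch term (1.67, 0.000737). Without the 5 TA arrays of low ratio the Cd36 difference from TA_6h was 1.33 (limma adjusted p = 0.018), and with those arrays alone as TA it was 4.72. On single arrays Cd36 read 48.0 to 107 on the 5 low-ratio arrays and 286 to 1103 on the remaining TA arrays, so its direction was the same on both kinds and its size was not.

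Dbi, the acyl-CoA binding protein that carries activated fatty acids in the cytosol, had intensities of 6056, 5330.2, 6158 and 5090.02 in EOM, 2879.5, 2666, 3376 and 3842 in TA_6h and 2230.00 and 4932 in TA_1h. Every EOM sample was above every TA sample, with TA_1h sample 2 nearest to them. Dbi was 1.8-fold higher than in TA_6h, at a log2 difference of 0.85 ± 0.23 (limma adjusted p = 0.0137). Against TA_1h the difference was 0.83 ± 0.28 (limma adjusted p = 0.0431), and this call was lost without any 1 of the EOM samples (adjusted p from 0.0583 to 0.0871) and without TA_6h sample 1 (0.0522) or 3 (0.0568). Without TA_1h sample 1 the Dbi difference was 0.32 (limma adjusted p = 0.431). Sample 2, which then stands for TA_1h, holds array 2b at 6939.9 and array 2a at 2925.

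Fabp3, the fatty acid binding protein of heart and muscle, had intensities of 12400.1, 12989.9, 11866 and 12924 in EOM, 11969.5, 10638, 20026 and 13787 in TA_6h and 14299 and 17546 in TA_1h. The groups overlapped, and the difference from TA_6h was -0.10 ± 0.20 on the log2 scale (limma adjusted p = 0.691). Lpl, the lipoprotein lipase that frees fatty acids from triglyceride, had intensities of 5985, 5621, 5753 and 4982 in EOM, 5692, 6313, 4434 and 2925 in TA_6h and 5906 and 4066 in TA_1h. Its groups overlapped as well, at 0.27 ± 0.25 against TA_6h (limma adjusted p = 0.399), and the lowest sample was TA_6h 4.

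Activation joins a fatty acid to coenzyme A, and the long-chain acyl-CoA synthetases of this step did not move as 1 group. Against TA_6h, Acsl3 and Acsl4 were called higher in EOM, Acsl1 and Acsl6 lower, and Acsl5 and Acot2 were not called. Acsl6 had intensities of 435, 398, 540.3 and 277 in EOM, 1181, 1247, 848 and 717 in TA_6h and 987 and 1142 in TA_1h. All 4 EOM samples were below all 6 TA samples, by 2.4-fold against TA_6h (log2 -1.26 ± 0.25, limma adjusted p = 0.00237) and by 2.64-fold against TA_1h (log2 -1.40 ± 0.31, limma adjusted p = 0.0053). These 2 calls stood in each of the 26 alternatives tried.

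Acsl1, the main long-chain synthetase of adipose tissue and muscle, had intensities of 2689, 3629.6, 2480.4 and 2801 in EOM, 3959.9, 3976, 8944 and 8907 in TA_6h and 4433 and 5271 in TA_1h. The EOM samples were all below the TA samples, and TA_6h samples 3 and 4 were about level with each other and far above the rest. The log2 difference from TA_6h was -1.04 ± 0.31 (limma adjusted p = 0.0204), and without the 5 low-ratio arrays it was -0.44 (limma adjusted p = 0.0738). The Acsl1 call was also lost without EOM sample 3 (-0.97, adjusted p = 0.0531) or TA_6h sample 3 (-0.84, 0.0565) or 4 (-0.84, 0.052). Against TA_1h it was -0.73 ± 0.38 and not called (limma adjusted p = 0.161).

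Acsl4, a synthetase that prefers arachidonic acid, had intensities of 487, 1078, 484 and 443 in EOM, 283, 349, 285 and 312 in TA_6h and 497 and 431 in TA_1h. EOM sample 2 stood far above the other EOM samples, which lay within the range of TA_1h and above TA_6h. The difference from TA_6h was 0.94 ± 0.27 (limma adjusted p = 0.0181), and without the 5 low-ratio arrays 0.90 (limma adjusted p = 0.109). A dimmer Acsl4 probe set read 235, 858, 197 and 201 in EOM and 285, 408, 285 and 226 in TA_6h. Its difference was 0.04 ± 0.44 and not called (limma adjusted p = 0.949). The dimmest Acsl4 probe set was below 0 on every EOM array and was not tested. The Acsl4 call thus rests on the brightest probe set. Acsl3 had intensities of 702, 764, 629 and 671 in EOM, 539, 584, 436 and 388 in TA_6h and 596 and 391 in TA_1h. Its EOM samples were above all TA samples, but the difference of 0.53 ± 0.20 passed the threshold barely (limma adjusted p = 0.049998). Without the 5 low-ratio arrays the Acsl3 difference was 0.30 (limma adjusted p = 0.292). The Acsl3 call was lost in 14 of the 26 alternatives, and 7 of the 10 fits that left out 1 sample lost it, EOM 1, 2, 3 or 4 and TA_6h 1, 3 or 4, with differences of 0.42 to 0.58. Acsl5 ranged from 278 to 473 in 3 EOM samples and reached 3880 in EOM sample 2, against 258 to 400.2 in TA.

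In the carnitine shuttle, the muscle form of the entry enzyme was lower in EOM and the liver form was called lower in neither comparison. Cpt1b, the muscle form of carnitine palmitoyltransferase 1, had intensities of 3589.8, 3742, 4449 and 3949 in EOM, 7924, 8649.5, 8885 and 7571 in TA_6h and 8093 and 7117 in TA_1h. Every EOM sample lay below every TA sample. The EOM mean of 3933 ± 375 compared with 8257 ± 614 in TA_6h (SD, n = 4 each), which is 2.09-fold (log2 -1.06 ± 0.15, limma adjusted p = 0.000278). Against TA_1h it was 1.91-fold (log2 -0.93 ± 0.18, limma adjusted p = 0.00282). The values without the 5 low-ratio arrays were -1.07 against TA_6h and -1.11 against TA_1h on the log2 scale, both called.

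Cpt1a, the liver form, had intensities of 369.5, 309, 265 and 315 in EOM, 295, 328, 339 and 502 in TA_6h and 97.3 and 89.9 in TA_1h. EOM and TA_6h overlapped, and both TA_1h samples were below every other sample. Cpt1a was 3.62-fold higher in EOM than in TA_1h (log2 1.86 ± 0.24, limma adjusted p = 0.000276), while its difference from TA_6h was -0.19 ± 0.20 (limma adjusted p = 0.463). Slc25a20, the carnitine and acyl-carnitine carrier of the inner membrane, had intensities of 1493, 1256, 1439 and 1736 in EOM, 1166, 1068, 1085 and 1116 in TA_6h and 1079.7 and 822 in TA_1h. Its EOM samples were above all TA samples, with a difference of 0.41 ± 0.16 from TA_6h that was not called (limma adjusted p = 0.0588) and of 0.66 ± 0.20 from TA_1h that was (limma adjusted p = 0.0237). The Slc25a20 call was lost without EOM sample 4 (0.58, adjusted p = 0.0547) and without TA_1h sample 2 (0.47, 0.191). Cpt2, which returns the acyl group to coenzyme A inside the mitochondrion, was at 3357 ± 513 in EOM against 2862 ± 261 in TA_6h (SD, n = 4 each) and was not called.

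Beta-oxidation had 15 genes, and 11 of them were not called against TA_6h and 13 not against TA_1h. Acads, the short-chain acyl-CoA dehydrogenase, was the called enzyme with the greatest difference, with intensities of 589, 849.7, 1213 and 807 in EOM, 1893, 1941, 2848 and 3991 in TA_6h and 1348 and 1488 in TA_1h. All EOM samples were below all TA samples, and TA_6h samples 3 and 4 were the highest. The difference from TA_6h was 3.03-fold (log2 -1.60 ± 0.29, limma adjusted p = 0.00136), and without the 5 low-ratio arrays -1.19 (limma adjusted p = 0.0149). Against TA_1h it was -0.72 ± 0.35 and not called (limma adjusted p = 0.141). The dehydrogenases for medium, long and very long chains, Acadm, Acadl and Acadvl, were not called in either comparison, with log2 differences of 0.36, -0.39 and -0.22 from TA_6h. Acadl was called lower without the 5 low-ratio arrays, at -0.64 against TA_6h (limma adjusted p = 0.00991) and -0.47 against TA_1h (0.0325), and it was also called against TA_6h without TA_6h sample 4 (-0.56, 0.037). With the 5 arrays alone as TA, Acadm was called higher against TA_6h, at 0.85 (limma adjusted p = 0.0227). Its difference from TA_1h, which is then 1 array, was 1.14.

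The 2 subunits of the mitochondrial trifunctional protein, which carries out the last 3 reactions of a round on long chains, were called in opposite directions. Hadha, the alpha subunit, had intensities of 5909, 6712, 5725 and 8779 in EOM, 9870.1, 10123, 11607 and 12694 in TA_6h and 10218 and 7556 in TA_1h. EOM samples 1 to 3 were below all TA samples and EOM 4 was above TA_1h sample 2, so the groups overlapped at that point. The difference from TA_6h was -0.72 ± 0.20 (limma adjusted p = 0.0142). Hadhb, the beta subunit, had intensities of 12100.00, 12857, 11645 and 13207 in EOM, 8684, 8422, 8724 and 6712 in TA_6h and 9678 and 5500.2 in TA_1h. Every EOM sample was above every TA sample, by 0.62 ± 0.22 against TA_6h (limma adjusted p = 0.0412) and by 0.88 ± 0.27 against TA_1h (limma adjusted p = 0.028).

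The Hadhb call was less firm than that of Hadha. Against TA_6h it was lost in 8 of the 10 fits that left out 1 sample, each of the EOM and TA_6h samples in turn, with differences of 0.54 to 0.66. With the 5 low-ratio arrays as a batch term it was 0.32 (limma adjusted p = 0.321). Against TA_1h the Hadhb call was lost without EOM sample 2 (0.87, adjusted p = 0.0508), EOM sample 4 (0.86, 0.0571) or TA_1h sample 2 (0.36, 0.304). Hadha was called in all 10 fits that left out 1 sample, with differences of -0.85 to -0.64.

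In RefSeq's GRCr8 table the transcription starts of Hadhb and Hadha have 300 bases between them on chromosome 6, and the genes run away from each other. The stretch between them that both promoter entries share is shown because the 2 genes that flank it were called in opposite directions. It is the plus strand at chr6:31907551-31907750, 200 bases that lie 50 bases from either start, and holds none of the letters AGGTCA on either strand.
Hadha: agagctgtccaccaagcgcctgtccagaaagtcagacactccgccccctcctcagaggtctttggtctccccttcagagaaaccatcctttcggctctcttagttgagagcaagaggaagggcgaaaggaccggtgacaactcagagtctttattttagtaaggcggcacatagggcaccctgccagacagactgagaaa

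Eci1, the enoyl-CoA isomerase needed for unsaturated chains, had intensities of 2309, 2108, 2131 and 1871 in EOM, 3123, 2813, 6144 and 7422 in TA_6h and 3657 and 4817 in TA_1h. The EOM samples were below all TA samples, and TA_6h 3 and 4 were again the highest. The difference from TA_6h was -1.07 ± 0.32 (limma adjusted p = 0.0194), and without the 5 low-ratio arrays -0.46 (limma adjusted p = 0.0356). The Eci1 call was lost without TA_6h sample 3 (-0.91, adjusted p = 0.0556). A second Eci1 probe set read 3243, 3630, 3367 and 3294 in EOM, 2197, 2401, 3374 and 3532 in TA_6h and 2712.5 and 2256 in TA_1h. On that probe set EOM was above TA_1h and overlapped with TA_6h, so the lower reading belongs to the brightest probe set. Etfdh, which passes electrons from the acyl-CoA dehydrogenases to ubiquinone, had intensities of 3284, 3646, 2568 and 2887 in EOM, 2291, 2098, 3261 and 2878 in TA_6h and 1877 and 1898 in TA_1h. EOM overlapped with TA_6h and was above TA_1h, at 0.72 ± 0.23 (limma adjusted p = 0.0338). That call was lost without EOM sample 1, 2 or 4 or either TA_1h sample, with differences of 0.64 to 0.75.

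Of the other beta-oxidation genes, Echs1 (the short-chain enoyl-CoA hydratase), Decr1 (the dienoyl-CoA reductase) and Etfa (a subunit of the electron transfer flavoprotein) had log2 differences of 0.34, 0.30 and 0.18 from TA_6h. Echs1 (0.43, limma adjusted p = 0.0478) and Decr1 (0.45, 0.0244) were called higher without the 5 low-ratio arrays. Acaa2, the thiolase of the last reaction, stood at -0.35. Ech1, an auxiliary isomerase, was at 0.02, with EOM at 5737, 5210.1, 5770.02 and 6434, below TA_6h samples 3 and 4 and above samples 1 and 2 (4198, 4025, 8697 and 7235). Without the 5 low-ratio arrays the Ech1 difference from TA_6h was 0.49 and with those arrays alone -0.46, both called by limma (adjusted p = 0.0179 and 0.0363). Acadsb was above the floor on 11 of 16 arrays and was not called. Hadh was above it on 7 TA arrays and on no EOM array, and was not called either.

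The control genes were the step with the most calls in 1 direction, 5 lower and 0 higher in EOM against TA_6h and 3 lower and 0 higher against TA_1h. Ppard, the nuclear receptor that senses fatty acids and switches on oxidation genes, had intensities of 237, -5.87, 215 and -92.6 in EOM, 1902, 2123, 2368 and 2728 in TA_6h and 1795 and 1666 in TA_1h. EOM samples 2 and 4 were below 0, and EOM samples 1 and 3 were under the lowest TA sample by a wide margin. The mean intensity was 88.5 ± 163 in EOM against 2280.5 ± 354 in TA_6h (SD, n = 4 each). The log2 difference was -4.32 ± 0.48 against TA_6h (limma adjusted p = 6.31e-05) and -3.93 ± 0.58 against TA_1h (limma adjusted p = 0.000613). Both rest on floored values, and muscle and array summary cannot be told apart, so the true size may be greater or smaller. Ppara, the related receptor best known from liver, did not differ beyond its spread, at 309.5 ± 67.3 in EOM against 283 ± 17.9 in TA_6h (SD, n = 4 each; log2 0.21 ± 0.24, limma adjusted p = 0.491).

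Pdk2, a kinase that switches off pyruvate dehydrogenase, had intensities of 3949.7, 4228, 4474 and 3963 in EOM, 8659.6, 9428, 12968 and 15427 in TA_6h and 8691 and 8744 in TA_1h. No EOM sample came near a TA sample, and TA_6h samples 3 and 4 were the highest. Pdk2 was 2.72-fold lower than in TA_6h (log2 -1.45 ± 0.20, limma adjusted p = 0.000282) and 2.08-fold lower than in TA_1h (log2 -1.06 ± 0.25, limma adjusted p = 0.00755). Both calls stood in each of the 26 alternatives.

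Pdk4, the kinase of the same family that fasting and fatty acids induce, had intensities of 353, 349, 840.1 and 362 in EOM, 7194, 2506, 48.6 and 41.6 in TA_6h and 1670.1 and 512 in TA_1h. EOM lay between TA_6h samples 1 and 2, which were far above it, and samples 3 and 4, which were under the floor. The difference from TA_6h was -0.12 ± 1.50, with a standard error larger than that of any other tested member, and was not called (limma adjusted p = 0.956). Without the 5 low-ratio arrays the Pdk4 difference was -3.20 (limma adjusted p = 0.00269), with those arrays alone as TA it was 2.96 (0.00288), and with them as a batch term -2.95 (5.52e-05). The direction of the Pdk4 difference thus turned with the kind of TA array.

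Ucp2 and Ucp3, mitochondrial carriers named uncoupling proteins, were both lower in EOM than in TA_6h. Ucp3, the form of skeletal muscle, had intensities of 617, 208, 910.4 and 318 in EOM, 3684, 1837, 1067 and 804 in TA_6h and 1647 and 934 in TA_1h. EOM sample 3 was above TA_6h sample 4, so the groups overlapped, and the difference of -1.78 ± 0.55 (limma adjusted p = 0.0233) was lost without EOM sample 2 (-1.42, adjusted p = 0.0586), EOM 4 (-1.62, 0.0604), TA_6h 1 (-1.40, 0.0593) or TA_6h 2 (-1.69, 0.0552). Without the 5 low-ratio arrays the Ucp3 difference was -2.48 (limma adjusted p = 0.0133), and with those alone -1.08 (0.216). Ucp2 had intensities of 3840.4, 4955, 4568 and 4744 in EOM, 8443, 6567, 8843 and 10926 in TA_6h and 5888 and 5415 in TA_1h. All EOM samples were below all TA samples, at -0.92 ± 0.19 against TA_6h (limma adjusted p = 0.0027) and, not called, -0.28 ± 0.23 against TA_1h (limma adjusted p = 0.368).

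Acaca and Acacb make malonyl-CoA, the inhibitor of the carnitine entry step. Acaca had intensities of 21.6, 72.8, 48 and 52.3 in EOM, 167, 147, 103 and 205 in TA_6h and 326 and 202 in TA_1h. In EOM 1 of 4 arrays was above the floor, and every TA sample was above every EOM sample. The log2 difference on floored values was -1.25 ± 0.26 against TA_6h (limma adjusted p = 0.00321) and -2.06 ± 0.32 against TA_1h (limma adjusted p = 0.000809). With the floor raised to the 40th percentile, the Acaca difference from TA_6h was -0.30 and not called (limma adjusted p = 0.201). Acacb, the form bound to mitochondria in muscle, had intensities of 104, 54, -22.3 and 134 in EOM, 439, 559.8, 86.7 and 55 in TA_6h and 532 and 215 in TA_1h. Its groups overlapped, at -1.02 ± 0.71 against TA_6h (limma adjusted p = 0.26), and without the 5 low-ratio arrays the Acacb difference was -2.24 (limma adjusted p = 0.00715).

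Receptors of the PPAR family bind repeats of the half-site AGGTCA together with a retinoid X receptor. RefSeq's promoter table (GRCr8) held 30 of the 38 genes, and the 250 bases before each start were searched on both strands. AGGTCA occurred in 5 of the 30, Ucp3, Echs1, Eci1, Acadvl and Acacb, and in 14.1% of all 33469 promoters of that length. The direct repeat AGGTCANAGGTCA occurred in none of the 30 and in 0.0508% of all, and the extended half-site TCAAGGTCA in none of the 30 and in 0.388% of all. Each longer motif holds AGGTCA within it. A match is a description of the letters, and the lack of one says that these letters are not in this window. The promoters of Ucp3 and Pdk4 are shown as those of a called control gene with 2 half-sites and of the gene that varied most between TA arrays, which has none. Capitals mark AGGTCA, 155 and 50 bases before the Ucp3 start. Ucp3 is at chr1:164227660-164227909 on the plus strand, and Pdk4 at chr4:34568330-34568579 on the minus strand. Ucp2, which was also called lower, starts 23462 bases from Ucp3 on chromosome 1.
Ucp3: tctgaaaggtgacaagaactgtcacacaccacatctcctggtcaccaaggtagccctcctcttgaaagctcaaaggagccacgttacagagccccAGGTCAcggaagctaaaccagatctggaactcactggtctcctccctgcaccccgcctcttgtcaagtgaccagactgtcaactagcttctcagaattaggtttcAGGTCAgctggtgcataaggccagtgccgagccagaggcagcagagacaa
Pdk4: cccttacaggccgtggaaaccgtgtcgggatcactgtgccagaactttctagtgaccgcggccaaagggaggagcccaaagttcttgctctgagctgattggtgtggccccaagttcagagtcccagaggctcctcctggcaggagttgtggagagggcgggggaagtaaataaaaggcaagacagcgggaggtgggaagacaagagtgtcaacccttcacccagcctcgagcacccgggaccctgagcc

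Between the 2 collection times of TA, limma called 0 of the 37 genes and 0 of 7640 probe sets (0.00%). At an unadjusted p under 0.05 there were 5 of the 37 genes and 424 probe sets (5.55%), and 5.79% of named genes. The 5 genes were Cpt1a, Ucp2, Acadvl, Acads and Acaca. Cpt1a had the lowest adjusted p of all 7640 probe sets, 0.0655 by limma, at a log2 difference of 2.04 ± 0.24 and an unadjusted p of 8.57e-06. It was the 1 member that was higher on every TA_6h array than on any TA_1h array, which held for 0.718% of named genes. No member was lower on every TA_6h array, which held for 0.788%. Its 4 TA_1h arrays read 56.95 to 137 and its 8 TA_6h arrays 262 to 525. In 8 of the 26 alternatives Cpt1a was called, among them the fit without the 5 low-ratio arrays (1.57, adjusted p = 0.042), and over all 26 its adjusted p ran from 0.00346 to 1 and its difference from 1.40 to 2.84. Ucp2 (0.64 ± 0.23), Acads (0.88 ± 0.35) and Acadvl (0.48 ± 0.19) were higher at 6 hours and Acaca (-0.80 ± 0.32) lower by estimate, with limma adjusted p between 0.833 and 0.885. The median difference was 0.13 over the 37 members and 0.02 over the named genes.

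Some members separated the 2 kinds of TA array. On every one of the 5 arrays of low beta-actin ratio, 7 of the 37 genes were lower than on any of the other 7 TA arrays, and 2 were higher. Among named genes 7.0% were lower in this way and 5.42% higher. The lower genes, with mean log2 differences, were Pdk4 (-5.45), Cd36 (-3.18), Acadsb (-1.97), Acot2 (-1.50), Ucp3 (-1.30), Acadm (-1.12) and Etfa (-0.69). The higher genes were Acsl1 (1.03) and Eci1 (0.98). Pdk4 read 39.8 to 67.0 on the low-ratio arrays and 957 to 10239 on the others. The median difference was -0.11 over the 37 members and 0.04 over the named genes.

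TA_1h sample 2 holds 1 array of each kind, numbered 2a and 2b. Within it Pdk4 read 957 on array 2a and 67.0 on array 2b, Cd36 286 and 76.9, Acadm 10329.7 and 4498, and Acacb 393 and 37.3. Acsl1 went the other way, from 4064 to 6478. The part that the state of the RNA had in these differences was not tested.

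**Figure D2:**
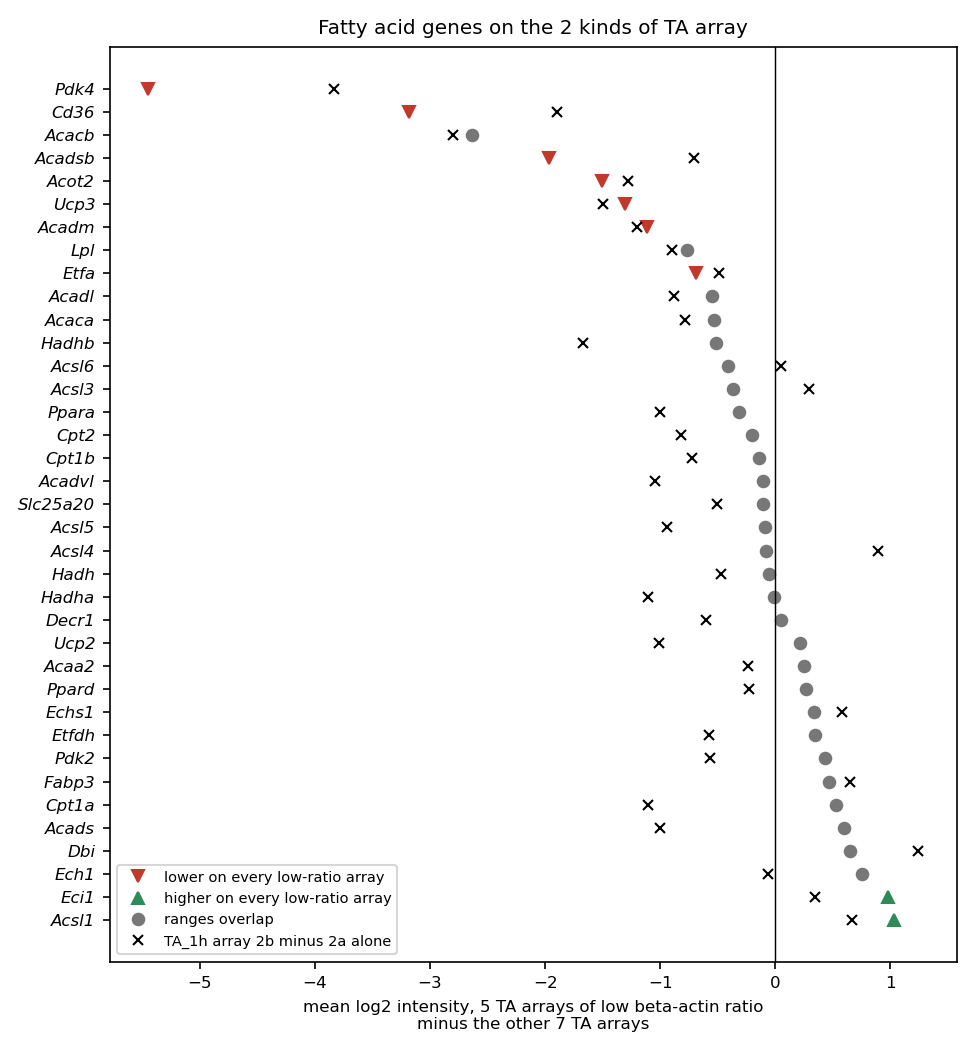
For each of the 37 genes the mean log2 intensity of the 5 TA arrays with a low beta-actin ratio minus that of the other 7 TA arrays is plotted, with triangles where the 2 sets of arrays do not overlap and crosses for array 2b minus array 2a of TA_1h sample 2. Pdk4 and Cd36 lie farthest to the left in the first measure, at -5.45 and -3.18, and Acsl1 farthest to the right, at 1.03.

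A second probe set of the same gene did not always give the same reading. Among 18 members with several tested probe sets, 3 had all of them called in 1 direction against TA_6h, 9 had some called and some not, 4 had none called, and 2, Acsl1 and Acsl3, had calls in opposite directions. The other 19 members had 1 tested probe set. For Acsl1 the brightest and the second probe set were at -1.04 and -0.54, and a dimmer one at 1.63 (limma adjusted p = 0.000968), with mean intensities of 865 ± 101 in EOM and 321 ± 72.2 in TA_6h (SD, n = 4 each). For Acsl3 the dimmer probe set was under the floor on all EOM arrays and 128 ± 25 (SD, n = 4) in TA_6h, 2.11-fold lower in EOM on floored values. The 3 probe sets of Ppard were all called lower, and the 2 of Cd36 both higher, against TA_6h. On the dimmer Ppard probe sets every EOM array was below 0, from -874 to -550 and from -315 to -254. Their calls therefore rest on floored EOM values.

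Etfdh held the widest gap between probe sets of 1 gene. Its brightest probe set was at 0.25 ± 0.19 against TA_6h, and its dimmest 21.4-fold lower in EOM on floored values (limma adjusted p = 7.05e-08). The dimmest had intensities of -372, -253, -286 and -520.2 in EOM and 1127, 1165, 1450.5 and 1146 in TA_6h. All 4 EOM values were thus below 0, and all TA_6h values near or above 1000. Another probe set of Lpl was called higher in EOM (1.27 ± 0.39, limma adjusted p = 0.0239), as was the second of Decr1 (1.85 ± 0.50, 0.012). The second probe set of Pdk2 was lower by estimate and missed the threshold (-0.54 ± 0.21, 0.0544), and the other 2 of Hadha were at -0.66 ± 0.25 and 0.75 ± 0.54, neither called. Of the 65 probe sets, 10 had an EOM array below 0.

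**Figure D3:**
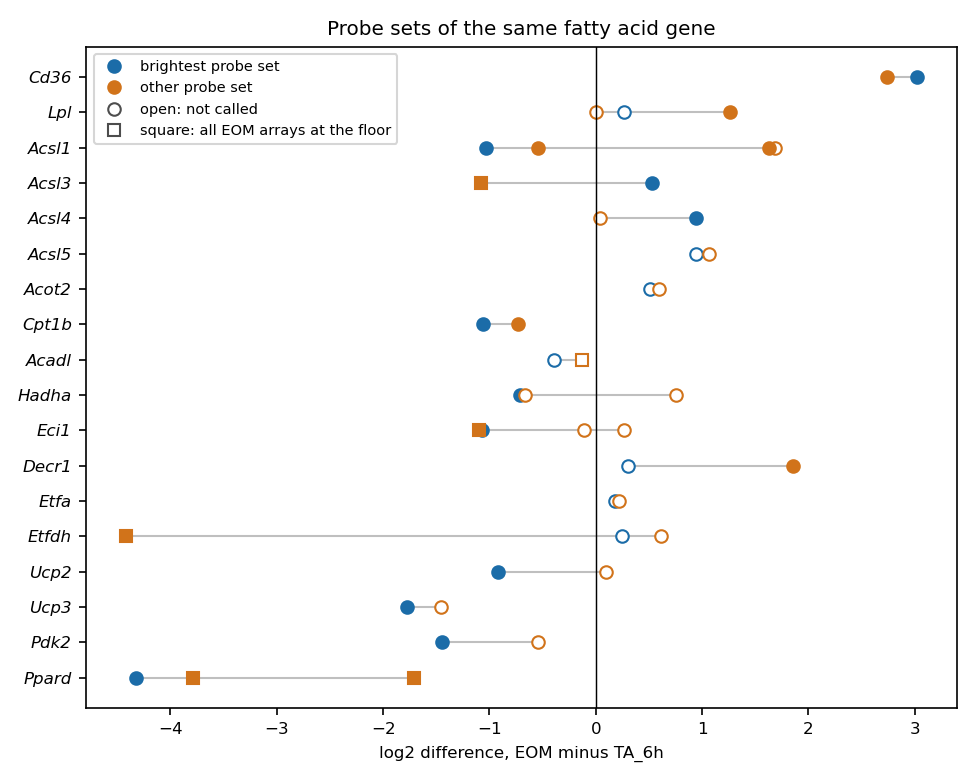
Each row gives the log2 differences of EOM from TA_6h for the probe sets of 1 gene, blue for the brightest and orange for the others, filled where called and square where all EOM arrays are at the floor. Rows of Ppard, Cd36 and Cpt1b lie on 1 side of 0, while those of Acsl1, Acsl3, Eci1 and Etfdh, among others, cross it.

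Other genes of fatty acid use were counted as 6 lists. Of 11 tested genes of fatty acid transport and lipolysis, 3 were called higher in EOM than in TA_6h, the binding proteins Fabp4 (1.04 on the log2 scale), Fabp5 (2.06) and Fabp7 (0.77), and 3 lower. The lower ones were under the floor on all EOM arrays. On floored values they were Slc27a1 and Slc27a2, fatty acid transport proteins (8.07-fold and 2.59-fold lower), and Lipe, the hormone-sensitive lipase (28.5-fold lower). Among 11 peroxisomal and auxiliary oxidation genes, 4 were higher, Acox2 (2.79), Pex11a (2.18), Acaa1b (1.36) and Scp2 (1.02), and 2 lower, Abcd3 (-2.50) and Acot7 (-0.72). Of 2 carnitine genes, Crot, the octanoyltransferase, was higher (1.50) and Slc22a5, the carnitine importer, lower (-0.78).

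Of 10 nuclear receptors, coactivators and AMP kinase subunits, 6 were called lower and none higher, in both comparisons. They were Rxra, Rxrb and Rxrg, the partners of the PPAR receptors (-1.80, -3.24 and -1.13 against TA_6h), Esrra (-0.94), Nr4a1 (-2.40) and Prkaa1 (-1.08). All EOM arrays were at the floor for Rxra. Of 5 genes of ketone body and propionate use, Bdh1 (a mean of 739.0 against 88.1) and Pcca (1.17) were higher and Acat1 (-1.73) and Pccb (-1.17) lower than in TA_6h. Of 7 genes of the pyruvate dehydrogenase complex and its switch, Pdk1 was higher (0.95) and 6 were not called. Against TA_1h the calls were 1 higher and 3 lower for transport and lipolysis, 1 and 0 for carnitine, 3 and 0 for the peroxisome, 2 and 1 for ketone bodies and 0 and 0 for pyruvate dehydrogenase. In the background 48.0% of named genes were called against TA_6h and 37.6% against TA_1h.

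Several calls of these lists were lost or changed in fits without 1 sample or without the low-ratio arrays. Such fits hold fewer samples, and a call can be lost with its difference unchanged. Without 1 of the TA_1h samples, Fabp7 stayed at 0.77 and Acot7 at -0.72 against TA_6h, yet neither was called. Fabp5 read 12313 on EOM array 2 and 956 to 1289.8 on the other 3 EOM arrays, and without EOM sample 2 its difference from TA_6h was 1.20 (limma adjusted p = 0.00239). The Fabp5 call was lost without any 1 of the TA_6h samples, with differences of 1.96 to 2.16. The call of Fabp7 was lost without any 1 sample other than EOM 1 (0.55 to 0.84), and that of Acot7 without EOM 3 or 4, either TA_1h sample or TA_6h 1, 3 or 4 (-0.75 to -0.56). Slc22a5 was not called without EOM 1 or 4 or TA_6h 1, 2 or 3 (-0.79 to -0.62), Abcd3 without EOM 1, 3 or 4 or TA_6h 3 or 4 (-2.46 to -1.87), and Rxra without TA_6h 2 (-1.56). Without the 5 low-ratio arrays Fabp5 (2.02), Fabp7 (0.73), Slc27a2 (-0.92), Slc22a5 (-0.89), Abcd3 (-1.95), Acot7 (-0.60) and Pdk1 (0.67) were not called, and Pdp1, the pyruvate dehydrogenase phosphatase, was called higher (0.45). Scp2 then stood at 0.63, Esrra at -0.55 and Rxra at -2.70, all 3 called. Against TA_1h, the calls of Slc27a2, Acox2 and Nr4a1 were lost without either TA_1h sample, that of Rxra without sample 1 (-1.21) and those of Crot (1.58), Rxrg (-1.01) and Esrra (-0.91) without sample 2.

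Of the markers of other cells, those of macrophages were called in 1 direction and the other lists in both. Among named genes 22.3% were called higher against TA_6h and 25.8% lower. Of 5 liver markers tested, 1 was higher and 2 lower. Of 8 macrophage markers on the array 6 were called higher in EOM than in TA_6h and none lower. Their summed intensity was 11913 to 17067 in EOM, 3350 to 6187 in TA_6h and 3317 to 4154 in TA_1h. Within TA_6h it was 5287 to 6187 on arrays 3a, 3b, 4a and 4b and 3350 to 4002 on the others. Cd68 and Cd163 were not analysed here. Of 8 adipocyte markers 4 were higher (Cidea, Scd, Cfd and Fabp4) and 2 lower (Lipe, Lep), with sums of 10738 to 13452 in EOM and 8296 to 9403 in TA. The adipocyte markers Plin1 and Lipe were under the floor on all EOM arrays. Of 7 endothelial markers 1 was higher and 2 lower, with sums of 2337 to 2829 in EOM and 2548 to 4084 in TA. The macrophage marker Ptprc was called too without the 5 low-ratio arrays (0.54), and Cfd (1.43), Vwf (0.46) and Myh7 (-0.52) were not called against TA_6h. Cd36 and Lpl are also found in fat, endothelium and macrophages, and the part of these cells in the differences was not tested. Of 4 slow oxidative fibre markers 2 were lower than in TA_6h (Myh7, Myl3) and none higher, with sums of 25451 to 27067 in EOM, 42412 to 67078 on the low-ratio TA arrays and 31423 to 47741 on the others.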

How the data were processed

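The authors deposited 1 intensity per probe set and array on a linear scale. How probes were summarised was not given in the sources used here. The trimmed mean of each array lay between 801.1 and 801.8, so intensities were used as deposited. Values under the 25th percentile (56.5) were raised to it, log2 was taken, and arrays of 1 number were averaged; printed sample intensities are plain means. Probe sets over the floor on 4 or more arrays (7640, without the 59 controls) were fitted together for the 3 groups with limma 3.58.1 in R 4.3.3 (lmFit, eBayes, 7 residual and 2.83 prior degrees of freedom), with Benjamini-Hochberg adjustment over all. The fit was tested on simulated data. Probe sets were named through GEO's platform annotation: 7018 had 1 symbol, 308 several and 1473 none. Members called were named with values for every sample, as was the brightest of each step. Members, steps and lists were chosen with earlier results of these data known. Figures were drawn with matplotlib 3.10.9. The number of arrays limits the precision. Alternatives changed the floor, scaling, filter, sample unit, arrays, probe set choice and samples.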

Additional observations from a re-analysis of the deposited data

Results flagged for a closer look

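In groups of 4 samples, 5 of 73 had a sample far from the other 3, against about 1 in 20 by chance. In EOM, sample 2 was the highest for Acsl4 (1078, the others 443 to 487), Decr1 (2784, the others 2329 to 2357) and Acaca (72.8, the others 21.6 to 52.3). EOM sample 3 was the highest for Pdk4 (840.1, the others 349 to 362). In TA_6h, sample 4 was the lowest for Hadhb (6712, the others 8422 to 8724). The Acaca values of the other 3 EOM samples were all under the floor. They were raised to the same value before samples were compared, so the Acaca flag says only that sample 2 was above the floor.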

How the results depend on the processing

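Over 26 alternatives, the members called against TA_6h numbered 11 to 21 (16 as reported), and 7 were called in each of them, Cd36, Dbi, Acsl6, Cpt1b, Acads, Pdk2 and Ppard, apart from Cd36 and Ppard under the filter on all 16 arrays, which leaves them out. Against TA_1h (10 members as reported), Acsl6, Cpt1a and Pdk2 were called in each, and Ppard in each that tested it. There the count was 23 without the 5 low-ratio arrays, 20 with those alone as TA, 17 with them as a batch term, and 6 to 11 without 1 sample. Between TA_6h and TA_1h (0 members as reported), it was 1 with the filter on all 16 arrays, with no filter, with each array as its own sample, without the 5 arrays, with them as a batch term and with the median of a gene's probe sets. It was 0 to 1 without 1 sample. With the 5 arrays alone TA_1h is 1 array, and counts against it are not given. The median of a gene's probe sets turned Acsl1 to 0.16 and Acsl3 to -0.28 against TA_6h and Etfdh to -0.67 against TA_1h. Against TA_6h it also lost the calls of Acsl4 (0.49), Hadha (-0.63), Eci1 (-0.27), Ucp2 (-0.41) and Ucp3 (-1.62). It gained those of Decr1 (1.08) and Etfdh (-0.87). With the 5 arrays alone, Dbi was at -0.30 against TA_1h. The other causes were not tested.

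With the sample number as a replicate block, 14 members were called against TA_6h, 8 against TA_1h and 0 between the TA groups. Deviations of samples that share a number correlated at 0.02 to 0.10 between EOM and TA_6h, at 0.04 and -0.04 between EOM and TA_1h, and at 0.39 (number 1) and -0.42 (number 2) between TA_6h and TA_1h. With 2 TA_1h samples the deviations from the group mean are equal and opposite, so the correlations with TA_1h cannot decide on pairing. The main fit did not pair samples by number, since the labels do not say that a number stands for 1 animal. Fits of the other lists without 1 sample or without the 5 arrays were chosen after seeing the data. In EOM, the share of values below 0 limits what low probe sets can show.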
